A study of Mus musculus with 4 samples.

Results

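The cytosolic ribosome is built from ribosomal RNA and one copy of most ribosomal proteins, in a small subunit that reads the messenger RNA and a large subunit that joins amino acids. The genes of these proteins were taken by symbol from the deposited table: Rpsa and every symbol made of Rps or Rpl followed by a number with an optional a, x or l, plus the acidic stalk genes Rplp0, Rplp1 and Rplp2. This gave 78 of 12799 genes, 31 of the small subunit and 47 of the large. The kinases named Rps6k and symbols of pseudogenes were left out, and so were Fau, Rack1 and Rps3a1, whose products are ribosomal but whose symbols do not match.

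Poly(A) RNA came from bone marrow-derived monocytes of female mice aged 12 weeks, cultured for 3 days with 30 ng/mL of the growth factor M-CSF and 50 ng/mL of RANKL, the cytokine that drives precursors toward the osteoclast, the bone-resorbing cell. Both groups carried Piezo1 alleles flanked by loxP sites. Controls (Piezo1fl/fl, n = 2) had no recombinase, and knockouts (Csf1r-iCre;Piezo1fl/fl, n = 2) had in addition a Cre driven by the Csf1r promoter, which is active in the monocyte lineage, so the presence of Cre cannot be told apart from the loss of Piezo1, a stretch-gated cation channel. Per the series' design text the 2 libraries of a genotype were biological replicates; pooling of animals is not stated in these sources. Read totals were 14122118 to 18897927. Piezo1 was at 430 and 384 CPM in controls 1 and 2 and at 61.0 and 56.2 CPM in knockouts 1 and 2. CPM here means a gene's reads divided by a scaled library size, times a constant, the unit of the deposited signal, and it is a share of the library, so that fewer cells of a type and less RNA per cell cannot be told apart. All 11 osteoclast markers and all 8 macrophage markers checked were in the table, with summed signals of 60070 to 75672 CPM and 3333 to 4054 CPM.

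Ribosomal protein mRNAs are known for being short, abundant and regulated as a group. Most begin at a C followed by a run of pyrimidines, the 5′ terminal oligopyrimidine or TOP tract, through which the growth-sensing kinase mTOR and the binding protein LARP1 control their translation. In cells of the monocyte lineage, M-CSF is among the signals that activate mTOR.

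Start-site sequences were compared first, because the shared tract is the feature by which these genes are known. RefSeq promoters on GRCm38.p6 were found for 58 of the 78 members, with 69 annotated starts. A C at the start followed by at least 4 bases that are each C or T stood at 13 of the 69 starts (18.8%), against 2.51% of all 32851 starts in the table. By subunit the share was 21.4% of 28 small-subunit starts and 17.1% of 41 large-subunit starts. In the 30 bases around the start, the word CTTTCC stood on the coding strand at 14.5% of member starts and 1.42% of all starts, and on the other strand at 0 member starts and 1.27% of all starts. CTTTTCC was found on the coding strand at 4.35% against 0.329%, and on the other strand at 1.45% against 0.365%. CTTCC was found at 18.8% against 6.63%, and on the other strand at 11.6% against 7.31%. These words can overlap at their ends, and 31.9% of member starts held at least 1 of them on the coding strand, against 8.21% of all starts.

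The windows below belong to members whose values are given later. Each holds 15 bases before the annotated start and 15 bases from it, 5′ to 3′ on the coding strand, with the longest run of C and T in capitals. The first 7 belong to members with an unadjusted p under 0.05 between genotypes, the next 5 to members among the 6 with the highest log2 difference, knockout minus control (of the 2 starts of Rpl34 the one with the longer run), and the last to Rps6.
Rps18: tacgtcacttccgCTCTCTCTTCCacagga (chr17:33955651-33955680, minus strand)
Rps28: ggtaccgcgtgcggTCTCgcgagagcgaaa (chr17:33824548-33824577, minus strand)
Rps2: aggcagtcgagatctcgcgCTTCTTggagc (chr17:24720048-24720077, plus strand)
Rpl31: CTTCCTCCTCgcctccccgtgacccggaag (chr1:39367836-39367865, plus strand)
Rpl37a: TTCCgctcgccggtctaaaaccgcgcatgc (chr1:72711245-72711274, plus strand)
Rpl27a: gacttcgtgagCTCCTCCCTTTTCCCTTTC (chr7:109519180-109519209, plus strand)
Rpsa: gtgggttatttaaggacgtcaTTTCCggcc (chr9:120127751-120127780, plus strand)
Rpl34: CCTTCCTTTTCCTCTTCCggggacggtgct (chr3:130730323-130730352, minus strand)
Rpl35: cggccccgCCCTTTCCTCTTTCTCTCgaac (chr2:39005117-39005146, minus strand)
Rps10: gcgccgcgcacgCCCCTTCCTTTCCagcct (chr17:27635230-27635259, minus strand)
Rps27: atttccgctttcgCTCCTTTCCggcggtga (chr3:90213634-90213663, minus strand)
Rpl11: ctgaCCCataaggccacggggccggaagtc (chr4:136053379-136053408, minus strand)
Rps6: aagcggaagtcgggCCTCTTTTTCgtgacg (chr4:86857353-86857382, minus strand)
Rps18, Rpl35, Rps10, Rps27 and Rps6 begin with the C and pyrimidines at the annotated start itself, while in Rpl27a, Rpl31 and Rpl34 the run lies across or ahead of it. Annotated starts can lie some bases from the base that cells use, so a window without a tract says only that these letters are not there. The 13 members with the tract at a start had a median log2 difference between genotypes of −0.06, with 10 of 13 negative, and the other 45 members with a known start had a median of −0.11, with 44 negative.

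Levels of members spread widely when taken per kilobase of the principal transcript model. The median was 173 CPM per kb, with quartiles of 103 and 245, and the range without the low paralog Rpl39l was 98.0-fold. Small-subunit members had a median of 172 CPM per kb and large-subunit members 174 CPM per kb, so the subunits were alike in this measure.

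The highest members were the acidic stalk proteins Rplp2 and Rplp1, which recruit elongation factors to the large subunit. Rplp2 stood at 1117 and 1372 CPM per kb in the controls and 1129 and 1109 CPM per kb in the knockouts. Rplp1 stood at 1011 and 1119.97 CPM per kb in the controls and 916 and 993 CPM per kb in the knockouts. Their anchor on the ribosome, Rplp0, was lower, at a mean of 268 CPM per kb over the 4 libraries. The stalk holds more than one copy each of the first pair and one of Rplp0. Next in the large subunit came Rpl13a, which can also leave the ribosome to join an interferon-induced silencing complex in monocytes, at a mean of 699 CPM per kb, and Rpl4, whose loop lines the exit tunnel, at 654 CPM per kb. In the small subunit Rps21 (337 CPM per kb) and Rps9 (309 CPM per kb) were among the 4 highest.

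At the other end stood the tissue-restricted paralog Rpl39l, with 1.82, 1.89, 1.12 and 1.69 CPM in control 1, control 2, knockout 1 and knockout 2, or a mean of 2.96 CPM per kb. Its parent Rpl39, a protein of the peptide tunnel, was at 6.69, 10.0, 6.40 and 6.41 CPM, with control 2 the highest and a mean of 12.1 CPM per kb, and Rpl27 and Rpl37a had 37.1 and 52.0 CPM per kb. In the small subunit the lowest were Rps20 (43.3), Rps27l (44.0), Rps29 (52.6) and Rps13 (69.7 CPM per kb). The value of Rps20 rests on a model of 3706 bases, the longest of all members, of which 357 are coding. All 78 members passed the filter of 1 CPM in at least 2 libraries.

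**Figure D1:**
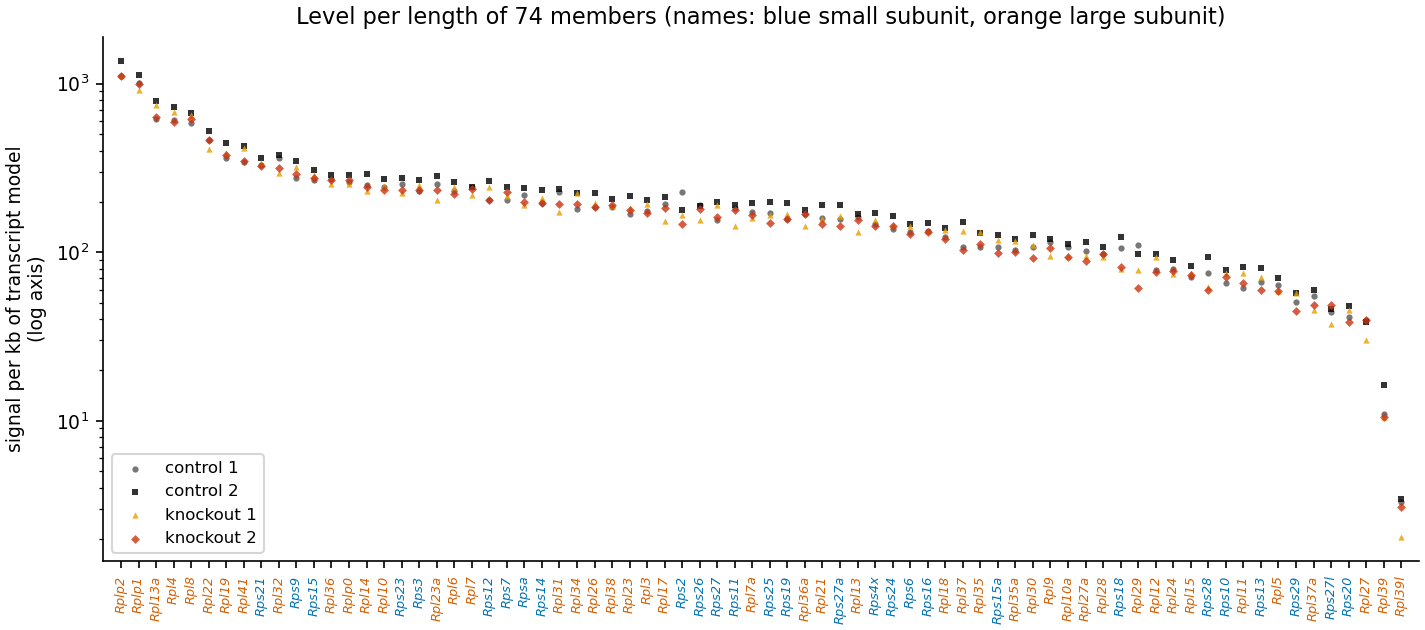
Signal per kilobase of transcript model (log axis) for 74 of the 78 members in each of the 4 libraries, ordered by the mean. Rplp2 and Rplp1 lie at the left end with means of 1182 and 1010.0 CPM per kb, and Rpl39 and Rpl39l at the right end with 12.1 and 2.96 CPM per kb.

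Reads from these genes are hard to assign, because ribosomal protein genes have left many processed copies in the mouse genome. Of the words of 45 bases, the read length, in each member's transcript model, a median of 56.0% also occurred in an annotated transcript of a gene elsewhere (GENCODE M21). The share reached 98.7% in Rps27. A median of 9.5 annotated pseudogenes held at least 1 such word, and the most were 128 for Rpl7a, 89 for Rpl21, 84 for Rpl29 and 78 for Rps2. Across the 78 members the level per kb was barely related to the share of shared words (Spearman's rho 0.01, Pearson's r 0.15 on log2 levels, a description over genes that share the same libraries). The sources used here do not say how reads that fit several places were counted. Levels of single members and their summed share of the signal are uncertain for that reason. The spans of 29 members held 56 annotated small nucleolar RNA genes on the same strand, the related scaRNA class included. Small nucleolar RNAs guide the modification of ribosomal RNA. Rpl4 held 5 of these genes, and Rpl13a held 4.

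The comparison of genotypes asks whether transcripts of the translation machinery differ when Piezo1 is removed from osteoclast precursors. Summed over members, ribosomal protein transcripts took 1.30% of the signal in control 1, 1.496% in control 2, 1.31% in knockout 1 and 1.23% in knockout 2. Control 2 stood above the other 3 libraries, and control 1 lay between the knockouts. The small subunit took 0.460%, 0.521%, 0.456% and 0.428% in that order, and the large subunit 0.841%, 0.974%, 0.853% and 0.798%. The ratio of small to large was 0.547 in control 1 and 0.535, 0.535 and 0.537 in the other libraries. The summed signals of the 2 subunits thus differed between libraries in much the same way. Medians over genes, given below, differed more between the subunits in knockout 1.

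Control 2 was the highest of the 4 libraries for 71 of 78 members, where 24.5% of all 11781 genes tested had their highest value in that library. The count was 28 of 31 in the small subunit and 43 of 47 in the large. Against control 1 alone, control 2 was higher for 73 of 78 members, where it was higher for 50.4% of all tested genes. As deviations from each gene's own mean over the 4 libraries on the log2(CPM + 0.5) scale, the medians over members were −0.04 in control 1, 0.16 in control 2, −0.04 in knockout 1 and −0.09 in knockout 2. The medians of the small subunit were −0.05, 0.16, −0.0008 and −0.09, and those of the large subunit −0.02, 0.16, −0.08 and −0.08. Of the 7 members that were not highest in control 2, 5 were highest in control 1 (22.7% of all tested genes), among them Rpl29, Rps2, Rpl27 and Rps26. Rpl35 was highest in knockout 1 (25.9%) and Rps27l in knockout 2 (26.8%). They were singled out after their values were seen.

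**Figure D2:**
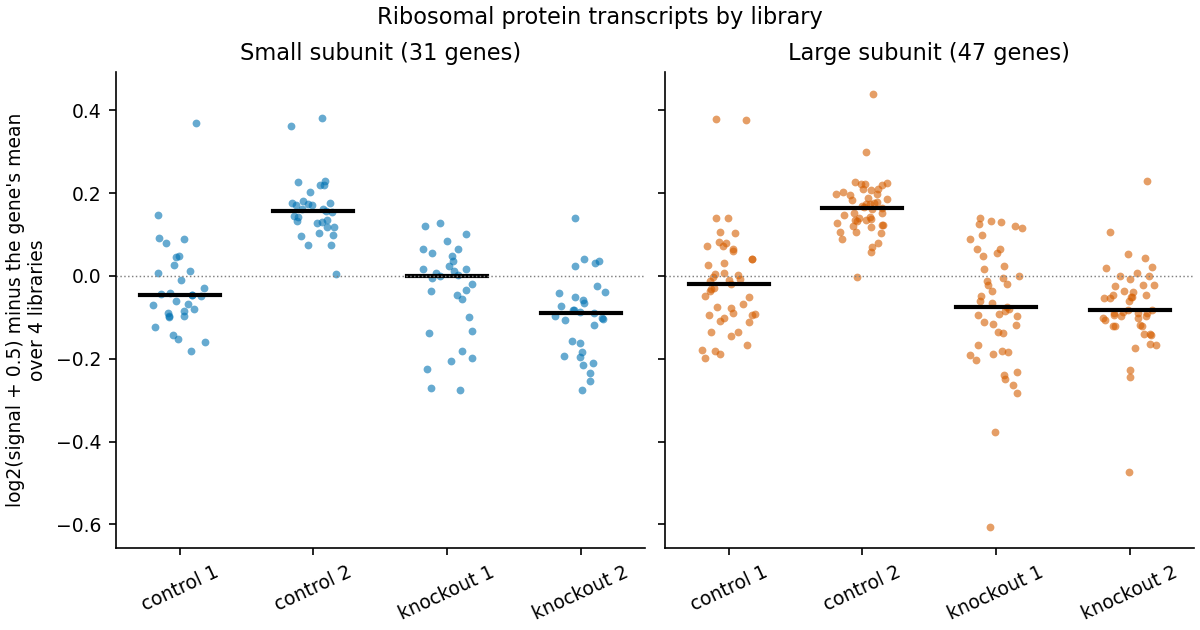
Each point is 1 member in 1 library, as log2(CPM + 0.5) minus that gene's mean over the 4 libraries, with small-subunit genes on the left and large-subunit genes on the right; bars are medians. In both panels the points of control 2 lie highest, with a median of 0.16.

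Some other measures also differed between the libraries. Osteoclast markers summed to 63050 and 60070 CPM in controls 1 and 2 and to 61014 and 75672 CPM in knockouts 1 and 2. Knockout 2 was the highest library for 10 of these 11 markers, where 26.8% of all tested genes had their highest value there. The sums of the macrophage markers were 3914 and 3333 CPM in the controls and 3744 and 4054 CPM in the knockouts. Neutrophil markers, of which 9 of 10 were in the table and 6 were tested, summed to 87.8 CPM in control 2 against 47.4 CPM in control 1, 55.6 CPM in knockout 1 and 54.8 CPM in knockout 2. Of 18 stromal, fibroblast and osteoblast markers 17 were in the table. They summed to 2325 and 2846 CPM in the controls and 1614 and 1536 CPM in the knockouts. Of these 17, 11 were lower in limma at an unadjusted p under 0.05, where 3.55% of all tested genes were. After adjustment 1 of the 11 passed, where 0.119% of all tested genes passed and were lower. The 17 markers had a median log2 difference of −0.58. Of the B cell markers 1 of 6 was in the table, of the T and NK cell markers 1 of 7, of the erythroid and megakaryocyte markers 4 of 9, of the dendritic cell markers 1 of 5, of the endothelial markers 2 of 4 and of the mast cell and basophil markers 0 of 4. None of these sums exceeded 13.0 CPM in any library. The share of mitochondrially encoded transcripts was 3.13% in control 1, 2.27% in control 2, 1.38% in knockout 1 and 2.74% in knockout 2, so that knockout 1 was the lowest. Control 2 also had the smallest read total. The part of these differences in the ribosomal protein values was not tested.

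The 2 knockouts did not order the members in one way. Knockout 1 was above knockout 2 for 47 of 78 members, against 49.9% of all tested genes, and this was 23 of 31 in the small subunit and 24 of 47 in the large. Knockout 1 was the lowest library for 22 of the 47 large-subunit members and 7 of the 31 small-subunit members. Knockout 2 was the lowest for 14 and 15. Members that stood higher in control 2 than in control 1 tended to stand higher in knockout 1 than in knockout 2 (Pearson's r = 0.57, Spearman's rho 0.65 over 78 members; 0.0016 and 0.11 over all 11781 tested genes, as descriptions over genes that share the libraries). Rpl37, at 89.6, 126, 112 and 86.2 CPM in control 1, control 2, knockout 1 and knockout 2, is an example chosen after its values were seen.

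**Figure D3:**
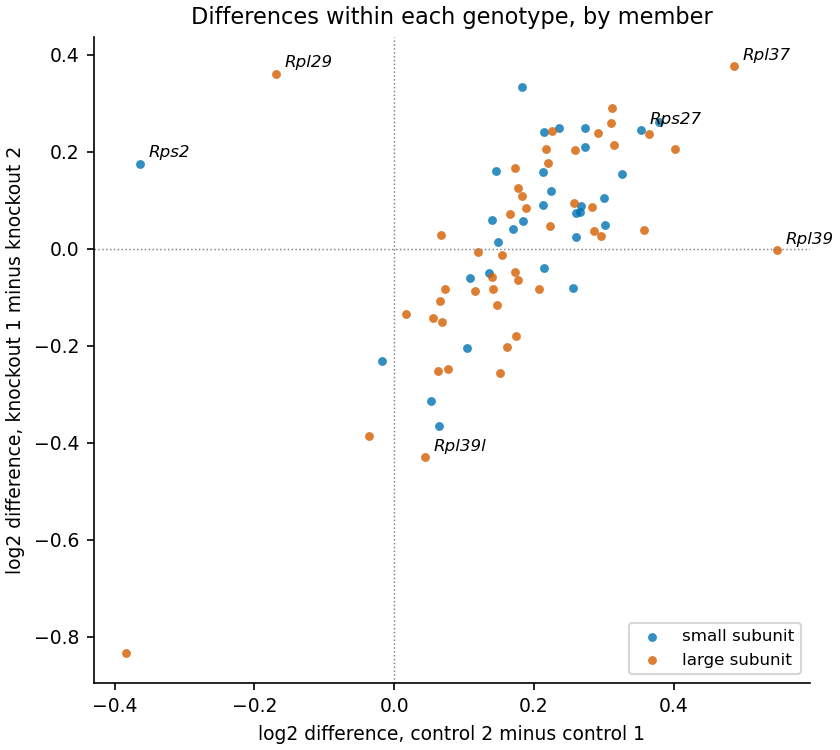
For each member, the log2 difference between the controls (control 2 minus control 1, horizontal) against that between the knockouts (knockout 1 minus knockout 2, vertical). Most points lie right of 0 and along a rising band, with Pearson's r = 0.57 over 78 members, while Rpl29 and Rps2 lie left of it.

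Between genotypes, 73 of 78 members had a lower mean on the log2 scale in the knockouts, where 49.5% of all tested genes did. The median log2 difference, knockout minus control, was −0.11 over members (−0.09 in the small subunit and −0.15 in the large) and 0.0016 over all tested genes. No member passed the test across all genes: 0 had a Benjamini-Hochberg adjusted p under 0.05 in limma, where 0.161% of tested genes did and 0.119% were lower, and 0 passed in edgeR (0.161% of genes) or DESeq2 (0.56%). The smallest adjusted p in limma was 0.29, for Rps18. At an unadjusted p under 0.05, 11 members were lower and 0 higher in limma, where 3.55% of all tested genes were lower and 1.35% higher. In edgeR 10 members were lower at that threshold (3.5% of genes) and in DESeq2 7 (1.91%). Both knockouts lay below both controls for 33 of 78 members, 11 of 31 in the small subunit and 22 of 47 in the large, where 15.4% of all tested genes did so, and both knockouts lay above both controls for 0 members (16.5% of genes).

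This difference depended on control 2. Without it the median over members was −0.03, with 41 negative and 37 positive, while without control 1 it was −0.21 with 78 negative. Without knockout 1 it was −0.14 with 74 negative, and without knockout 2 it was −0.09 with 56 negative. Without control 2 the small-subunit median was 0.0015 and the large-subunit median −0.06. Of the 11 members with an unadjusted p under 0.05, Rpl29, Rps18 and Rps2 kept an unadjusted p under 0.05 without control 2.

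**Figure D4:**
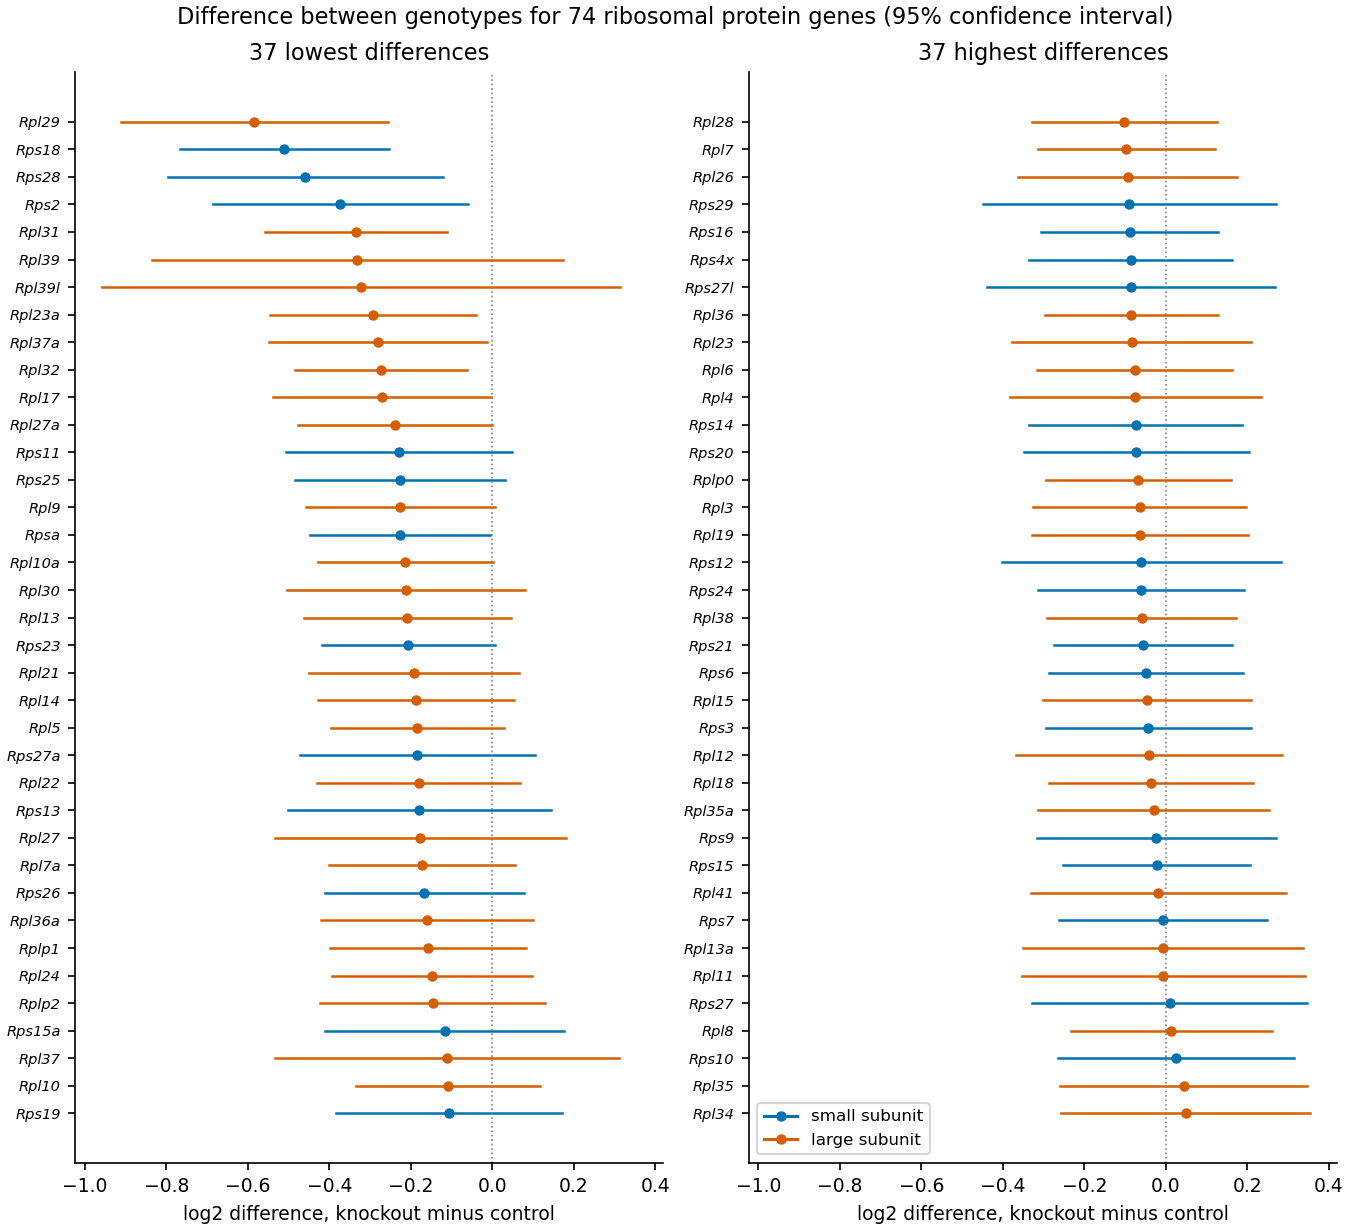
Log2 difference between genotypes (knockout minus control) with its 95% confidence interval from limma for 74 of the 78 members, lowest at the top left. The points of 69 of these lie left of 0, the intervals of the 11 members with an unadjusted p under 0.05 do not reach 0, and no member passed after adjustment over 11781 genes.

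The lowest value belonged to Rpl29, a small basic protein of the large subunit (chromosome 9, 106429454 to 106431568, plus strand, GRCm38, protein-coding). It was at 64.4 and 57.3 CPM in the controls and 45.8 and 35.6 CPM in the knockouts. Both knockouts lay below both controls, and control 1 rather than control 2 was the highest. On the log2 scale the knockouts were at −0.58 relative to control (95% confidence interval −0.91 to −0.26, SE 0.14). The adjusted p was 0.408 in limma and 0.105 in DESeq2. With 1 library left out, the difference was −0.76 without knockout 1 (limma adjusted p = 0.0244), −0.40 without knockout 2 (0.519), −0.50 without control 1 (0.99999) and −0.67 without control 2 (0.8995). Of its transcript's words 82.2% also occurred elsewhere.

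Next came 2 small-subunit genes that lie 0.127 Mb apart on chromosome 17. Rps18, a protein of the head of the small subunit (33951999 to 33956001, minus strand), was at 59.6 and 69.2 CPM in the controls and 44.3 and 45.6 CPM in the knockouts (log2 difference −0.51, SE 0.11, limma adjusted p = 0.29). Rps28, which sits near the exit of the mRNA channel (33819027 to 33824562, minus strand), was at 20.5 and 25.4 CPM in the controls and 16.8 and 16.2 CPM in the knockouts (log2 difference −0.46, SE 0.14, limma adjusted p = 0.781). In both the groups did not overlap. Within 0.5 Mb of the pair 39 other genes were tested, of which 1 was lower and 2 higher at an unadjusted p under 0.05, with a median log2 difference of 0.0084. On the same chromosome Rps2, at the entry of the mRNA channel (24718116 to 24721929, plus strand), was at 228 and 177 CPM in the controls and 165 and 146 CPM in the knockouts (log2 difference −0.37, SE 0.13, limma adjusted p = 0.931). The 6 members on chromosome 17, a grouping chosen after values were seen, had a median log2 difference of −0.29. Of these 5 were negative, where 73 of all 78 members were. The exception was Rps10, at 32.7 and 39.2 CPM in the controls and 37.4 and 35.5 CPM in the knockouts. All 589 genes tested on this chromosome had a median of −0.012. In limma 30 of them were lower and 24 higher at an unadjusted p under 0.05, or 9.17%. Over all tested genes 3.55% were lower and 1.35% higher.

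Among the other large-subunit members, those around the exit of the peptide tunnel were Rpl31, Rpl23a, which docks the signal recognition particle, and Rpl17, which lines the tunnel. Rpl31 was at 110 and 115 CPM in the controls and 84.9 and 93.8 CPM in the knockouts (log2 difference −0.33, limma adjusted p = 0.634). Rpl23a was at 141 and 158 CPM in the controls and 114 and 131 CPM in the knockouts (log2 difference −0.29, SE 0.11), and Rpl17 at 149 and 166 CPM and at 119 and 143 CPM (−0.27). In these 3 genes knockout 1 was the lowest library and the groups did not overlap. Rpl32 was at 186 and 195 CPM in the controls and 152 and 164 CPM in the knockouts (−0.27, limma adjusted p = 0.843), Rpl37a, a zinc-binding protein, at 30.6 and 33.2 CPM and at 25.3 and 27.0 CPM (−0.28), and Rpl27a at 118 and 134 CPM and at 110 and 102 CPM (−0.24). Rpsa, which is also known as the laminin receptor precursor, was the last of the 11, at 348 and 383 CPM in the controls and 307 and 318 CPM in the knockouts (−0.23). Unadjusted p-values from limma over all genes ran from 0.00194 for Rps18 to 0.0498 for Rpl27a. The 11 members had a median of 26 pseudogenes sharing a word, against 9.5 over all members, and across the 78 members the log2 difference had a Spearman's rho of −0.28 with that number, a weak relation given as a description.

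**Figure D5:**
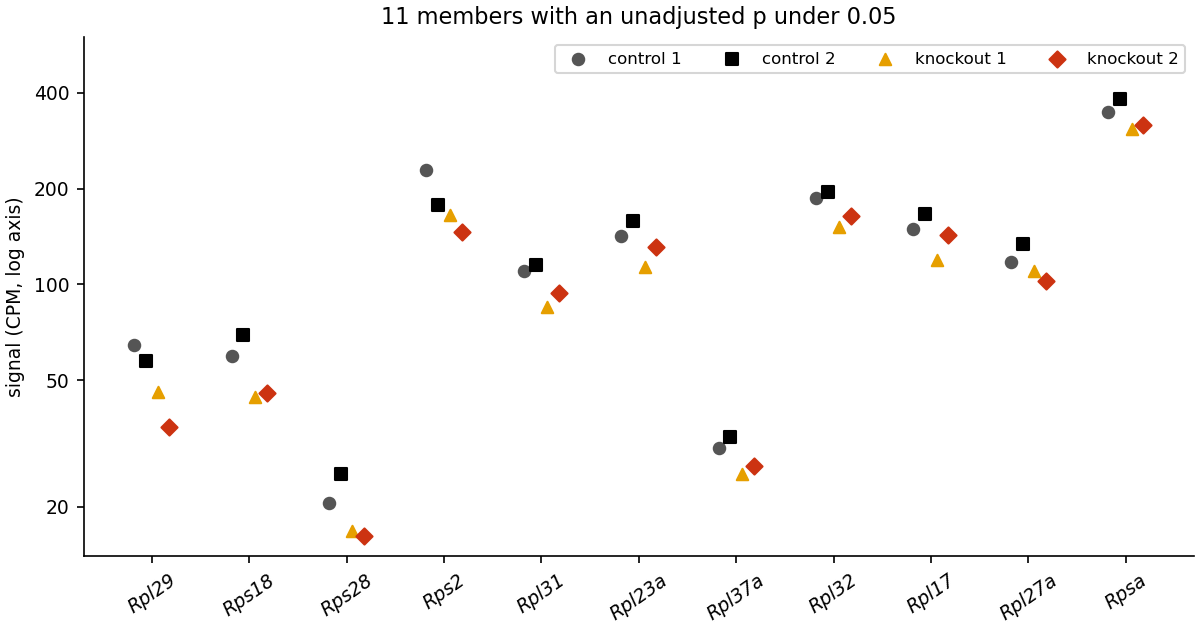
Signal in CPM (log axis) in each library for the 11 members with an unadjusted p under 0.05, ordered from the lowest log2 difference. Both knockouts lie below both controls in each of the 11; Rpl29 and Rps2 are highest in control 1 and the other 9 in control 2.

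Members at the upper end of the differences had overlapping groups. Rpl34 was at 87.2 and 109 CPM in the controls and 108 and 93.4 CPM in the knockouts (log2 difference 0.05, 95% confidence interval −0.26 to 0.35). Rpl35 was at 101 and 124 CPM and at 125 and 106 CPM (0.04), and Rps27, a zinc-finger protein of the small subunit, at 53.3 and 68.2 CPM and at 66.1 and 55.7 CPM (0.0089). In these genes control 2 and knockout 1 were the high libraries. Rpl8, which lies by the peptidyl transferase centre, was at 499 and 569 CPM in the controls and 553 and 522 CPM in the knockouts (0.01, 95% confidence interval −0.23 to 0.26). Rpl11, which with Rpl5 and the 5S ribosomal RNA can bind the p53 regulator Mdm2, was at 51.2 and 67.8 CPM in the controls and 63.1 and 54.6 CPM in the knockouts (−0.0060). The signs for Rpl8, Rps10 and Rps27 turned negative when the library total without ribosomal protein and mitochondrially encoded reads set the scale.

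For Rps6, Rps27l and the stalk genes, the 95% confidence intervals of the difference included 0. The same held for every member outside the 11 with an unadjusted p under 0.05. Rps6, the substrate of the S6 kinases, was at 117 and 129 CPM in the controls and 125 and 112 CPM in the knockouts (log2 difference −0.05, 95% confidence interval −0.29 to 0.19). Rps27l, the p53-induced paralog of Rps27, was at 22.0 and 23.0 CPM and at 18.6 and 24.1 CPM (−0.09, 95% confidence interval −0.44 to 0.27), and without knockout 1 the sign was positive (0.10). Of the stalk genes, Rplp0 was at 355 and 391 CPM and at 345 and 366 CPM (−0.07, 95% confidence interval −0.29 to 0.16), Rplp1 at 504 and 559 CPM and at 457 and 495 CPM (−0.16, −0.40 to 0.08), and Rplp2 at 470 and 578 CPM and at 475 and 467 CPM (−0.15, −0.42 to 0.13). The groups overlapped in Rplp0 and Rplp2 and not in Rplp1. Members with a small nucleolar RNA gene (scaRNA included) within their span had a median log2 difference of −0.17 (29 of 29 negative). Those without had −0.09 (44 of 49 negative).

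Genes that work with the ribosome were described beside the members. Of 29 translation factors and partners of the TOP class, 0 passed in limma and 0 had an unadjusted p under 0.05. Their median log2 difference was −0.05, and 25 were negative, where 49.5% of all tested genes were. Control 2 was the highest library for 23 of these 29, where it was for 24.5% of all tested genes. The elongation factor gene Eef1a1 was at 2722 and 2867 CPM in the controls and 2450 and 2687 CPM in the knockouts, and the initiation factor subunit Eif3d at 112 and 122 CPM and at 99.1 and 105 CPM. Of 39 genes of ribosome assembly and RNA polymerase I, 0 passed and 0 had an unadjusted p under 0.05, with a median of −0.04. Of these, 28 were negative (71.8%, against 49.5% of all tested genes). Control 2 was the highest library for 20 of them (51.3%, against 24.5% of all tested genes). Nop56, a scaffold of small nucleolar ribonucleoproteins, was at 59.0 and 61.0 CPM in the controls and 52.6 and 50.1 CPM in the knockouts. Of 8 tested chaperones and partners of single ribosomal proteins 0 had an unadjusted p under 0.05 (median −0.03).

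Of 21 regulators of the mTOR, LARP1 and MYC group 0 passed, with a median of −0.02. At an unadjusted p under 0.05 in limma 1 was lower (4.76%), near the 3.55% of all tested genes. That gene was Myc, the transcription factor that drives ribosome production, at 23.4 and 21.1 CPM in the controls and 17.9 and 17.99 CPM in the knockouts (log2 difference −0.30, limma adjusted p = 0.9997). Larp1 was at 313 and 297 CPM and at 295 and 286 CPM. Of 11 p53 targets 0 passed, with a median of −0.12. At an unadjusted p under 0.05 in limma 1 was lower (9.09%, against 3.55% of all tested genes). This was the exonuclease gene Aen, at 51.8 and 48.6 CPM in the controls and 41.9 and 42.1 CPM in the knockouts. Of the ribosomal genes outside the symbol rule, 7 of 8 were tested and 0 had an unadjusted p under 0.05. Fau, which encodes a small-subunit protein, was at 174 and 217 CPM in the controls and 217 and 172 CPM in the knockouts, with control 2 and knockout 1 high, and Rps3a1 was at 111 and 138 CPM and at 115 and 108 CPM.

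Mitochondrial ribosomal proteins, which build the separate ribosome of the mitochondrion, gave a set of the same size. Of 78 tested, 0 passed in limma and 0 had an unadjusted p under 0.05. Their median log2 difference was −0.0081, and 40 were negative, where 49.5% of all tested genes were. Control 2 was the highest library for 32 of these 78 (41.0%), against 71 of the 78 cytosolic members and 24.5% of all tested genes. It was above control 1 for 57 of these 78, where it was for 50.4% of all tested genes. Their medians by library were −0.04, 0.05, −0.02 and 0.04 in control 1, control 2, knockout 1 and knockout 2. The difference between the sets was not tested.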

How the data were processed

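Members and lists were chosen with earlier results of these data known. Per the submitters' processing notes, STAR, featureCounts from Subread and edgeR were used with the mouse build mm10 (GRCm38); these sources do not give the versions, annotation, strand setting, treatment of reads with several matches or filter on low genes. The authors deposited 1 table of normalised signal for 12799 genes in 4 libraries. Each value was a whole multiple of its column's smallest step (100% within 0.001 reads), so reads were recovered, and TMM-scaled CPM from those reads matched 100% of the deposited signal values within 1e-06 CPM. The 6 pairs of libraries all differed beyond sampling noise by chi-square over genes. Chi-square per degree of freedom was 22.5 between the knockouts, 11.2 between the controls and 12.0 to 21.1 across genotypes. Only spread between the 2 libraries per genotype enters the tests, pooled in limma across genes. Of 7.52 degrees of freedom per gene in limma, 5.52 came from other genes.

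Genotypes were compared on log2(CPM + 0.5) by limma's trended empirical Bayes test, 2-sided, with genotype as the sole term. The fit covered the 11781 genes that reached 1 CPM in 2 or more libraries, and p-values were adjusted over all of them (Benjamini-Hochberg); fold changes on this scale understate the change of low genes. An exact permutation test of 1 gene, 2 libraries against 2, cannot go below p = 0.333. edgeR's quasi-likelihood test and DESeq2 were run on recovered reads, and the limma step was tested on simulated reads. Members given library by library were those with an unadjusted p under 0.05, the 6 at each end of the log2 difference, the 4 highest and 4 lowest per kb in each subunit, the stalk genes, Rpsa, Rps6, Rps27 and Rps27l; some of these enter every count but are not reported here by name; other genes were chosen from lists by p or after their values were seen. Lengths and positions came from GENCODE M21 (the principal model's coding length, shortest such model), in which all 78 members were found. Shared words of 45 bases were searched on both strands in annotated transcripts only, not in the genome. Start sequences came from RefSeq on GRCm38.p6. Tests ran in DESeq2 1.42.0, edgeR 4.0.16 and limma 3.58.1 under R 4.3.3. Tables and figures were made with matplotlib 3.10.9, pandas 2.3.3, SciPy 1.17.1 and NumPy 2.4.6 under Python 3.11.15. Alternatives are in the closing section.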

Additional observations from a re-analysis of the deposited data

How the results depend on the processing

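With 0 members called at an adjusted p under 0.05 in limma, that count was also 0 with a pseudocount of 0.1 or 1, no filter or a filter at 5, DESeq2 size factors, no scaling factor, a library total without members and mitochondrially encoded reads, no trend, a robust variance model, edgeR and DESeq2. Fits with 1 library left out are not in that list, and the count did not stay the same in all of them. In those fits the log2 difference of Rpl29 ran from −0.76 to −0.40. The 19 calls over all genes became 4 without a trend, 66 in DESeq2 and 7 to 76 with 1 library left out; the cause was not tested. A replicate block gave 1 member, Rpl29 (adjusted p = 0.0411), and 89 genes. Deviations of same-numbered libraries had a correlation of −0.0016 over 11781 genes and −0.57 over the 78 members. These are the Pearson correlations given above (0.0016 and 0.57) with 1 difference reversed in sign, not separate observations. A correlation over genes cannot show whether the libraries were prepared in pairs.

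Leaving out 1 library kept the medians over members negative (−0.21 to −0.03; large subunit −0.23 to −0.06), except for the small subunit, which ran from −0.20 to 0.0015 and was positive without control 2. No scaling factor turned Rpl8 to −0.011 and Rps27 to −0.015. A library total without members and mitochondrially encoded reads turned Rpl8 to −0.023, Rps10 to −0.010 and Rps27 to −0.026. DESeq2 turned Rps27 to −0.00078. With 1 library left out, log2 differences that changed sign ran from −0.21 to 0.19 for Rpl11, −0.19 to 0.18 for Rpl13a, −0.37 to 0.018 for Rpl27, −0.11 to 0.21 for Rpl34 and −0.10 to 0.19 for Rpl35. They ran from −0.20 to 0.054 for Rpl4, −0.082 to 0.11 for Rpl8, −0.14 to 0.0024 for Rplp0, −0.29 to 0.0018 for Rplp2, −0.10 to 0.15 for Rps10, −0.19 to 0.048 for Rps20 and −0.13 to 0.014 for Rps21. They ran from −0.17 to 0.19 for Rps27, −0.27 to 0.10 for Rps27l, −0.26 to 0.077 for Rps29, −0.13 to 0.031 for Rps6, −0.19 to 0.14 for Rps9, −0.31 to 0.013 for Rps3a1 and −0.24 to 0.0018 for Mdm2. Where 1 library of a genotype is left out, the lone one is assumed to vary like the other genotype's pair. The difference in the members' share of the signal was −0.131 percentage points, −0.147 relative to a total without members and mitochondrially encoded reads, and −0.228 to −0.0332 with 1 library left out; a scaling factor common to all genes of a library leaves a share unchanged by construction. Members with few reads, such as Rpl39l, are limited by counting error, and all members by reads shared with pseudogenes.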
